A study of Mus musculus with 24 samples.

Results

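The comparison described here is that of the gastrocnemius (GAS) of sedentary old mice with that of sedentary young mice, over all genes. Libraries were chosen by their labels alone: the 3 GAS libraries of old controls (GAS OC, replicates 3, 4 and 5) and the 3 of young controls (GAS YC, replicates 1, 2 and 3), 6 of the 24 libraries of the study. Controls were male C57BL/6 mice, 84 weeks old in GAS OC and 9 weeks old in GAS YC by the labels, and neither control group ran on the treadmill. The study also sequenced the soleus (SOL) of the same groups, and both muscles of old and young mice that ran for 4 weeks (OE and YE). No gene was deleted and no drug was given in any group. Nothing in the labels says whether mice of a group came from 1 litter, so the spread between 3 libraries is the only error available. Each library holds RNA of muscle tissue with many cell types. Its gene levels are in FPKM, a count of sequenced fragments scaled to transcript length and to the total of the library.

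The gastrocnemius is a large calf muscle of mostly fast, glycolytic fibers, with slow and oxidative fibers gathered in its deep part. Old age is known to shrink fast fibers first, to loosen the contact between motor nerve and fiber, and to slow the making of new matrix. Fibers that lose their nerve are known to make more acetylcholine receptor, embryonic myosin and the myogenic factors that drive those genes. The soleus, beside it, is mostly slow and oxidative.

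All 6 libraries carried the genes of fast muscle. Myh4, the fastest myosin heavy chain, was at 10360 to 11790 FPKM in GAS OC and 10450 to 14750 FPKM in GAS YC, and Ckm, muscle creatine kinase, at 18470 to 21680 and 20680 to 22740 FPKM in these groups. Between 15217 and 15639 of the 18795 genes in the table had a value above 0 in a library, and the 10 most abundant genes held 31.7% to 38.3% of the FPKM. The depth in reads is unknown, since the values used are FPKM. The young libraries were uneven in slow fiber genes: the mean log2 level of a list of 12 slow contractile genes was 5.54, 5.75 and 5.97 in GAS OC, but 3.59, 2.35 and 5.95 in GAS YC. GAS YC replicate 3 was thus as high as the old libraries and GAS YC replicate 2 the lowest. Outside the 6 libraries, GAS OE replicate 3 stood apart from the other GAS libraries, with a mean correlation of 0.9843 across genes to them, where the others lay between 0.9884 and 0.9918. It entered the estimate of the spread, which was taken over the 12 GAS libraries.

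At an adjusted p under 0.05 (limma, Benjamini-Hochberg), 8 of 18795 genes changed, 0.0426% of those tested: 6 rose and 2 fell in GAS OC. The risen genes with clear signal were Kcnab1, Cpne2, Dkk3 and Tnfrsf23, with Cpn1 below 1 FPKM, and the fallen one was Dhrs7c. The other 2 were near 0 in every library.

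The product of Kcnab1 is an auxiliary beta subunit that shapes the gating of voltage-gated potassium channels. The gene lies on chromosome 3 from 64949212 to 65378225 (GRCm38). Its level was 5.77, 4.37 and 6.92 FPKM in GAS OC and 1.28, 1.37 and 0.814 FPKM in GAS YC. Every old library was above every young one, with a log2 fold change of 1.52 (SE 0.19, adjusted p = 0.0447). Cpne2 encodes a copine, a protein that binds membrane phospholipid when calcium is present (chromosome 8, 94532674 to 94570529). It was at 19.2, 12.4 and 15.3 FPKM in GAS OC and 4.09, 5.10 and 3.44 FPKM in GAS YC. The groups were far apart, with a log2 fold change of 1.51 (SE 0.17, adjusted p = 0.0278). Dkk3 encodes a secreted glycoprotein of the Dickkopf family, whose other members block Wnt signals (chromosome 7, 112116019 to 112159482). Its level was 9.60, 10.1 and 15.2 FPKM in GAS OC and 2.68, 4.17 and 3.51 FPKM in GAS YC, again without overlap, and the log2 fold change was 1.35 (SE 0.17, adjusted p = 0.0447).

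Tnfrsf23 encodes a mouse decoy receptor for the death ligand TRAIL (chromosome 7, 143665807 to 143686436). Its level was 3.12, 3.79 and 4.01 FPKM in GAS OC and 1.52, 1.54 and 1.56 FPKM in GAS YC. The young libraries hardly differed from each other, and the log2 fold change was 0.75 (SE 0.08, adjusted p = 0.0278). Its neighbour Tnfrsf22 is a near copy, so reads may be split between them. Tnfrsf22 was at 0.988, 0.864 and 1.27 FPKM in GAS OC and 0.548, 0.487 and 0.740 FPKM in GAS YC (log2 fold change 0.29, adjusted p = 0.288). Cpn1 encodes the catalytic subunit of carboxypeptidase N, a plasma enzyme made in the liver (chromosome 19, 43956307 to 43986551). It was at 0.707, 0.865 and 0.984 FPKM in GAS OC, against 0.0594, 0.0694 and 0.0534 FPKM in GAS YC. Low as it was, it was detected in all 6 libraries, and its groups did not overlap (log2 fold change 0.83 on the log2(FPKM + 1) scale, SE 0.06, adjusted p = 0.00223).

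Dhrs7c fell. It encodes a short-chain dehydrogenase of the sarcoplasmic reticulum, the calcium store of the fiber (chromosome 11, 67798271 to 67816002). Its level was 116, 111 and 121 FPKM in GAS OC and 195, 182 and 178 FPKM in GAS YC, with a log2 fold change of -0.78 (SE 0.07, adjusted p = 0.0119). Ppp1r36, a regulatory subunit of protein phosphatase 1, was at 0.050 to 0.0543 FPKM in GAS OC and listed at 0 in all 3 GAS YC libraries. Gm13242 was listed at 0 in all 3 GAS OC libraries and at 0.0209 to 0.0261 FPKM in GAS YC. Both passed the test on changes of 0.08 and -0.06 on the log2 scale, since their values barely varied, and both were listed at 0 in all 6 libraries of trained mice.

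**Figure D1:**
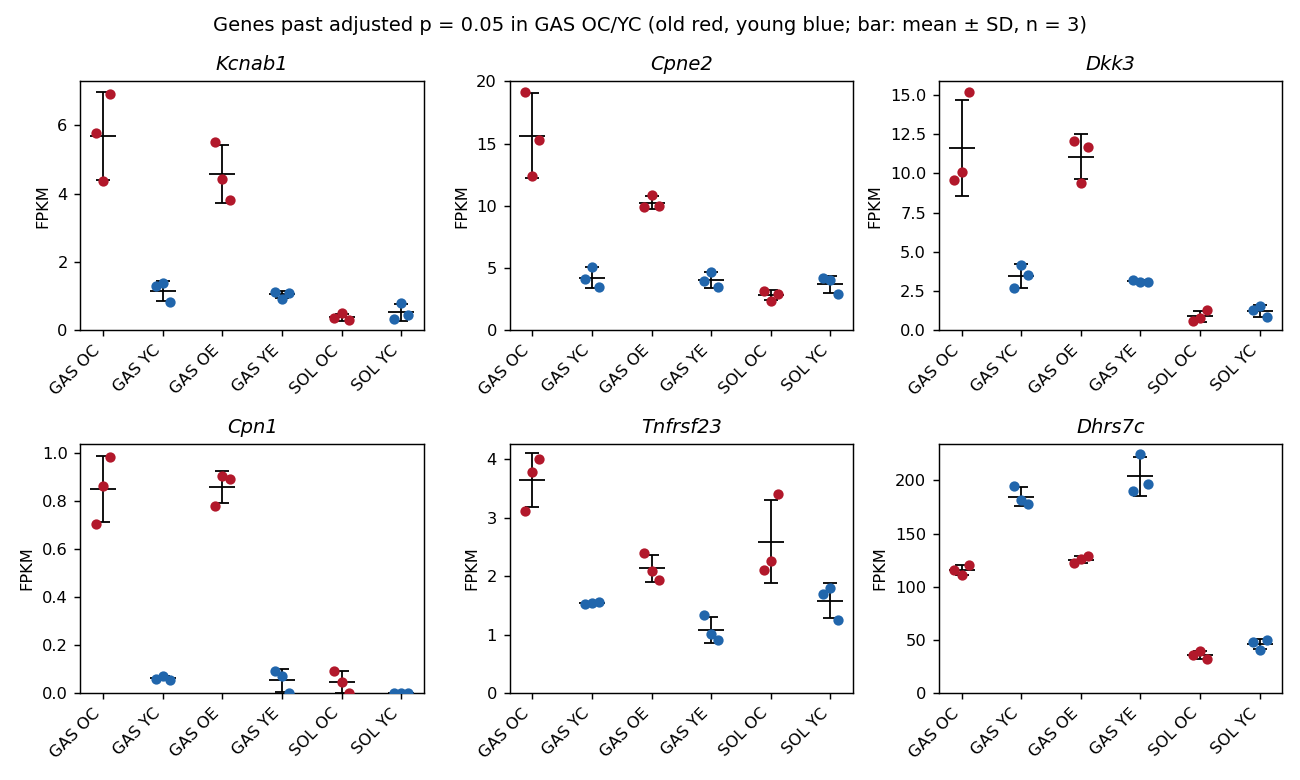
FPKM per library (vertical axis) of 6 of the 8 genes past an adjusted p of 0.05 in GAS OC/YC, by group (horizontal axis; red old, blue young; points are libraries, bars mean ± SD, n = 3). In GAS the old libraries were above the young ones for 5 genes and below them for Dhrs7c, in sedentary and in trained mice, while Kcnab1, Cpne2 and Dkk3 overlapped between SOL OC and SOL YC.

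The count of 8 was sensitive to single libraries and to the estimate of spread. It was 9 without GAS YC replicate 1, 20 without GAS YC replicate 2, 30 without GAS YC replicate 3, 20 without GAS OC replicate 3, 14 without GAS OC replicate 4, 13 without GAS OC replicate 5 and 55 without GAS OE replicate 3. Of the 8 genes, between 4 and 8 were called in these fits. Dhrs7c, Cpn1, Ppp1r36 and Gm13242 were called in all of them. Kcnab1 lost its call without GAS YC replicate 1 (adjusted p = 0.0824), GAS OC replicate 3 (0.0961) or GAS OC replicate 5 (0.0984), and Dkk3 without GAS YC replicate 1 (0.135), GAS YC replicate 3 (0.0564) or GAS OC replicate 4 (0.0711). Cpne2 lost it without GAS YC replicate 1 (0.0824) or GAS OC replicate 5 (0.0704), and Tnfrsf23 without GAS YC replicate 1 (0.0668), GAS OC replicate 4 (0.0737) or GAS OC replicate 5 (0.0704). With each gene's own variance in place of the shared one, none of the 8 was called, and with only the 6 libraries in the fit, Cpn1 alone was (adjusted p = 0.0237).

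A wider set was defined by the thresholds of the study, a fold change over 1.5 with an unadjusted p under 0.05, and its genes are called DEGs. There were 134 DEGs higher (0.713% of the genes tested) and 66 lower (0.351%) in GAS OC, and 124 and 64 of them had a mean of at least 1 FPKM in either group. Without quantile normalization the split was 196 higher and 40 lower, so that 83.1% of the DEGs were higher in place of 67%. Of the 200 DEGs, 169 had groups that did not overlap, 106 higher and 63 lower. Over all genes the groups did not overlap for 1390 higher genes (7.4%) and 1813 lower genes (9.65%). Apart from the 6 called genes among them, the DEGs did not pass the adjusted test, where the lowest adjusted p was 0.0567. They are described below by their levels. The set also moved with GAS YC replicate 3, without which there were 405 DEGs, 177 of them among the 200. Without another of the 6 libraries there were 148 to 203, of which 121 to 154 were among the 200.

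**Figure D2:**
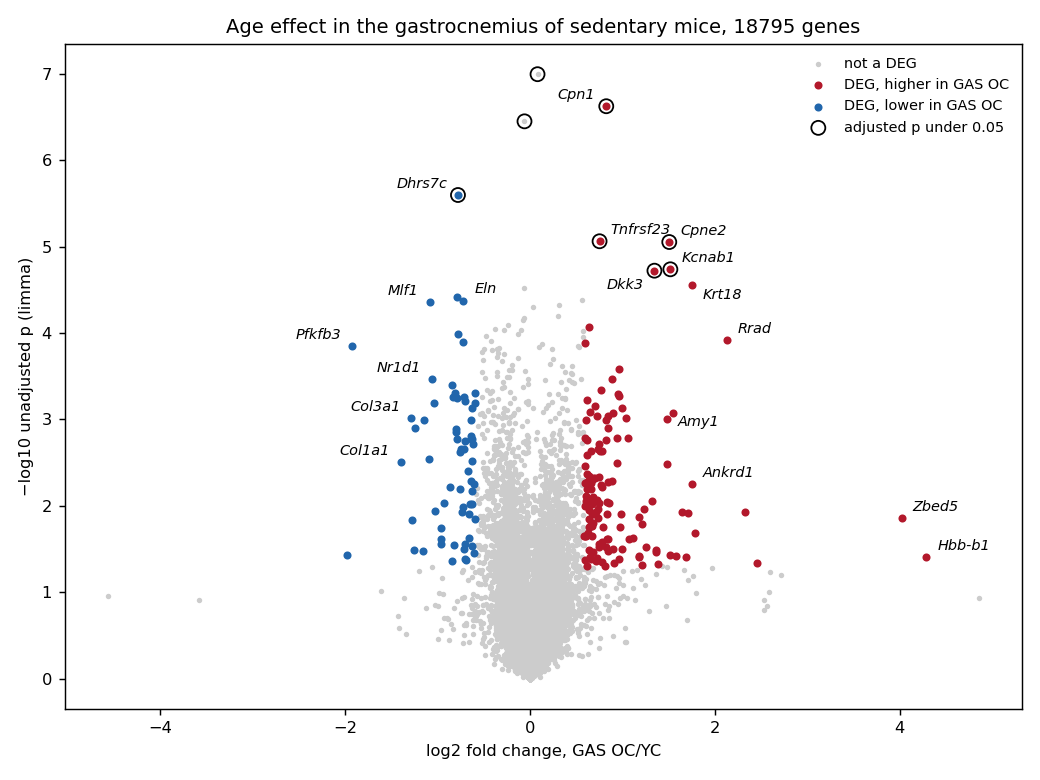
Unadjusted p from limma (−log10, vertical axis) against the log2 fold change of GAS OC/YC (horizontal axis) for 18795 genes. DEGs are coloured, 134 higher in red and 66 lower in blue, and the 8 genes past an adjusted p of 0.05 are circled.

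Among the DEGs that were higher, those with the largest fold changes and no overlap, at a mean of at least 1 FPKM, are given next. Rrad encodes a small GTPase that restrains calcium channels. It was at 8.75, 22.5 and 13.4 FPKM in GAS OC and 2.32, 1.03 and 3.04 FPKM in GAS YC. The groups did not overlap, and the log2 fold change was 2.13 (SE 0.33, adjusted p = 0.069). Ankrd1 and Ankrd2 encode ankyrin repeat proteins that bind titin and respond to stretch. Ankrd1 was at 41.7, 16.7 and 11.1 FPKM in GAS OC and 4.71, 3.81 and 4.96 FPKM in GAS YC. Ankrd2, which is also a slow fiber gene, was at 118, 133 and 85.1 FPKM in GAS OC and 49.8, 7.18 and 59.5 FPKM in GAS YC, so that its fold change leaned on the low GAS YC replicate 2.

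Krt18 encodes a keratin of simple epithelia. It was at 1.07, 3.43 and 2.69 FPKM in GAS OC, against 0.0506, 0 and 0 FPKM in GAS YC. Its log2 fold change was 1.76 (SE 0.23, adjusted p = 0.0567), the nearest to the threshold of all DEGs not called. Krt18 was called without GAS OC replicate 3 (adjusted p = 0.0015) or GAS OE replicate 3 (0.0429). The same held with 0.1 added in place of 1 (0.0123), a filter on low FPKM (0.0093) or no quantile normalization (0.0418). Under the other alternatives its adjusted p reached 0.271. Igfn1, which encodes a protein of the Z-disc, was at 10.7, 8.66 and 7.0 FPKM in GAS OC and 1.13, 1.58 and 2.47 FPKM in GAS YC. Uchl1, a deubiquitinase best known from neurons, was at 12.3, 9.32 and 8.34 FPKM in GAS OC and 1.48, 1.76 and 4.38 FPKM in GAS YC. Cyfip2, a subunit of the WAVE complex that governs actin branching, was at 2.36, 4.91 and 4.67 FPKM in GAS OC and 0.0632, 0.126 and 2.27 FPKM in GAS YC. In Cyfip2 and Uchl1, GAS YC replicate 3 again lay nearest to the old libraries.

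A few large differences came from genes whose values jumped between libraries of 1 group. Zbed5, a zinc finger gene, was at 18.8, 18.2 and 18.7 FPKM in GAS OC and 0.145, 0.214 and 0.122 FPKM in GAS YC, a log2 fold change of 4.03. In trained mice it was at 16.3, 0.153 and 24.6 FPKM in GAS OE and 16.6, 22.1 and 0.150 FPKM in GAS YE, so that in trained mice of either age it was high in some libraries and near 0 in others. The SE of the fold change in sedentary mice was 1.32 (adjusted p = 0.311). It was called with its own variance (adjusted p = 0.00544) and with only the 6 libraries in the fit (0.000537), within a range of 0.000537 to 0.566 over the alternatives. Gm13363 was at 9.72, 9.46 and 11.8 FPKM in GAS OC and at 0, 7.70 and 0 FPKM in GAS YC, and Hbb-b1, a beta globin whose reads may be shared with its close copies, at 40.4, 189 and 135 FPKM in GAS OC and 0.240, 60.6 and 0.425 FPKM in GAS YC. In trained mice both differed the other way, with log2 fold changes of -2.14 and -3.81 for GAS OE/YE. Other globins lay opposite to Hbb-b1 in sedentary mice. Hbb-bs was at 0 to 0.577 FPKM in GAS OC and 1e-06 to 75.6 FPKM in GAS YC (log2 fold change -3.59). Hbb-bt and Hba-a1 differed by -1.42 and -1.34. Of 7 red blood cell genes with a mean of 1 FPKM, 4 had a fold change above 1 and 3 below. BC048679 was at 11.2, 20.6 and 18.2 FPKM in GAS OC and 0.620, 0.663 and 10.3 FPKM in GAS YC.

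The DEGs lower in GAS OC were picked in the same way, by fold change among those without overlap at a mean of at least 1 FPKM. They were led by Hp, Pfkfb3 and the fibrillar collagens. Hp encodes haptoglobin, which binds free hemoglobin. It was at 2.48, 7.67 and 5.34 FPKM in GAS OC and 30.1, 36.1 and 9.21 FPKM in GAS YC, wide in both groups. Pfkfb3 encodes the enzyme that makes fructose 2,6-bisphosphate, the main activator of glycolysis (chromosome 2, 11471430 to 11554071). It was at 39.9, 27.0 and 34.3 FPKM in GAS OC and 120, 144 and 106 FPKM in GAS YC, a log2 fold change of -1.93 (SE 0.31, adjusted p = 0.069). Smox, spermine oxidase, was at 132, 103 and 127 FPKM in GAS OC and 264, 306 and 242 FPKM in GAS YC. Chac1, which breaks down glutathione, was at 40.0, 31.9 and 17.6 FPKM in GAS OC and 54.6, 54.7 and 98.3 FPKM in GAS YC.

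Slc38a4, an amino acid transporter, was at 19.7, 13.4 and 18.3 FPKM in GAS OC and 33.2, 42.9 and 32.8 FPKM in GAS YC. Mlf1, named for myeloid leukemia, was abundant in this muscle, with 98.3, 86.6 and 105 FPKM in GAS OC and 201, 194 and 173 FPKM in GAS YC. Its log2 fold change was -1.09 (SE 0.15, adjusted p = 0.0588). Apoc1, an apolipoprotein, was at 0.389, 1.20 and 0.348 FPKM in GAS OC and 2.19, 3.69 and 1.67 FPKM in GAS YC. For each of these genes the lowest young library was above the highest old one, which the choice of genes without overlap required.

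Trained mice offered the same comparison of ages in other animals. Of the 124 DEGs that were higher in GAS OC at a mean of at least 1 FPKM, 112 (90.3%) were also higher in GAS OE than in GAS YE, and 50 (40.3%) were so at an unadjusted p under 0.05. Of the 64 that were lower, 59 (92.2%) were lower in GAS OE, 34 of them (53.1%) at that p. None moved the other way at that p. Of all 10580 genes with a mean of 1 FPKM, 51.7% were higher in GAS OE, and at that p 7.93% were higher and 4.81% lower. Among all 18795 genes, 6.32% were higher and 4.36% lower in GAS OE at that p. The median log2 fold change in trained mice was 0.43 for the higher and -0.46 for the lower DEGs, against 0.78 and -0.76 in the sedentary mice in which they were chosen, and 0.01 for the 10580 genes. Without GAS OE replicate 3, 41 of the 124 and 35 of the 64 passed in the same direction and none in the other. The spread of each gene came from the same fit of GAS libraries in both comparisons. DEGs with a small spread keep it in trained mice, so these p-values are not independent of those that chose the DEGs. The shares over all genes carry no such choice.

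Genes with large differences in both sets of mice were Kcnab1, at 5.51, 4.43 and 3.82 FPKM in GAS OE and 1.12, 0.928 and 1.11 FPKM in GAS YE, and Dkk3, at 12.1, 9.42 and 11.7 FPKM in GAS OE and 3.18, 3.08 and 3.10 FPKM in GAS YE. Both changes passed the adjusted test in trained mice too, with the same estimate of spread (log2 fold change 1.52, adjusted p = 0.0301, and 1.55, adjusted p = 0.0237). So did those of Cpne2 (1.18, adjusted p = 0.0432), Tnfrsf23 (0.68, adjusted p = 0.0301), Cpn1 (0.94, adjusted p = 0.00139) and Dhrs7c (-0.68, adjusted p = 0.0237). Rrad and Ankrd1 were less apart there, with log2 fold changes of 0.69 and 0.51 (SEs 0.33 and 0.48), and neither passed an unadjusted p of 0.05.

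**Figure D3:**
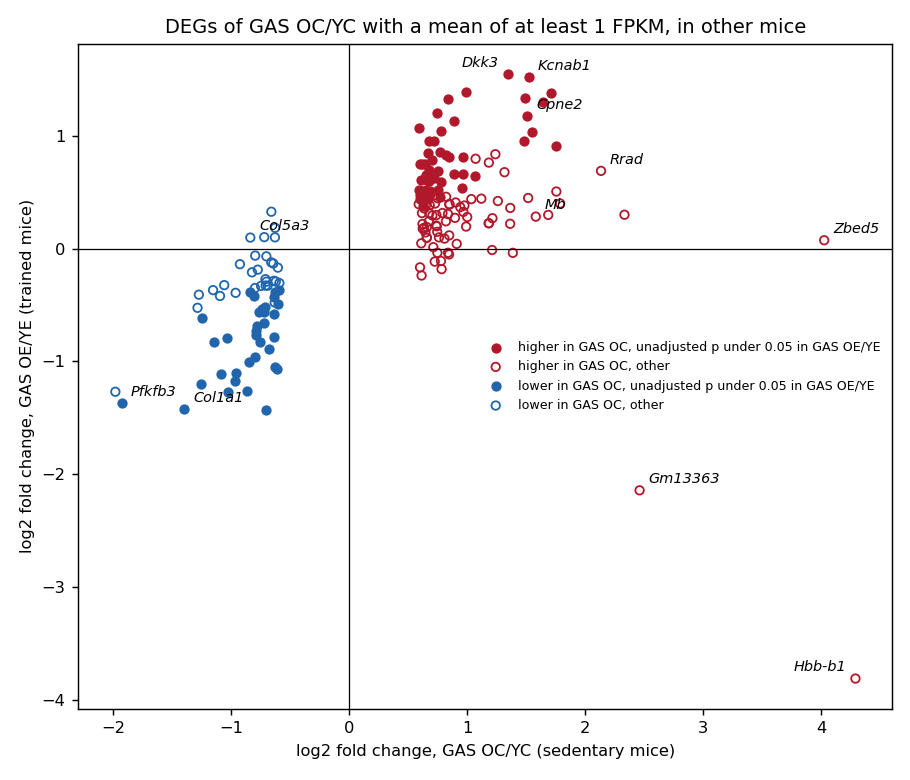
Log2 fold change of GAS OE/YE in trained mice (vertical axis) against that of GAS OC/YC in sedentary mice (horizontal axis), 1 point for each of the 188 DEGs with a mean of at least 1 FPKM, filled where the unadjusted p in trained mice was under 0.05. Of the 124 red points 112 lie above 0, of the 64 blue points 59 lie below 0, and Gm13363 and Hbb-b1 lie far below.

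Among the gene lists, the collagens held the most DEGs in the fit of 12 libraries. Of 23 collagen genes measured, 10 were DEGs, all lower in GAS OC (0.351% of all genes), 14 were lower at an unadjusted p under 0.05 (5.72%) and 17 had groups without overlap, all lower (9.65% of all genes). Collagens of the fibrils (types I, III and V), of basement membrane (type IV) and of the fiber surface (types VI and XV) were all among them. The median log2 fold change of the 17 collagens with a mean of at least 1 FPKM was -0.71, against -0.01 over all genes at that level. In every fit without 1 library and under every other setting, 9 to 11 collagens were DEGs. Without GAS YC replicate 3, a list of fatty acid genes held 18 DEGs and the slow contractile list 10, against 9 collagens. None passed the adjusted test in the fit of 12 libraries.

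Col1a1, a chain of the main fibril collagen, was at 7.87, 8.17 and 10.2 FPKM in GAS OC and 21.2, 17.8 and 36.0 FPKM in GAS YC. The old libraries were alike and every young one was higher, with a log2 fold change of -1.40 (SE 0.35, adjusted p = 0.191). Its partner Col1a2 was at 19.6, 20.3 and 27.8 FPKM in GAS OC and 39.2, 35.2 and 63.6 FPKM in GAS YC. Col3a1, of the finer fibrils, was at 11.8, 9.57 and 13.7 FPKM in GAS OC and 28.3, 25.4 and 33.4 FPKM in GAS YC (log2 fold change -1.29, SE 0.27, adjusted p = 0.121). Col4a1 and Col4a2 share a promoter region on chromosome 8. Col4a2 was at 10.4, 10.1 and 10.9 FPKM in GAS OC and 16.5, 17.4 and 19.4 FPKM in GAS YC, the least spread of the group (log2 fold change -0.78, SE 0.12, adjusted p = 0.069), and Col4a1 differed by -0.80. The type V chains Col5a1, Col5a2 and Col5a3, which start fibrils, differed by -0.71, -0.84 and -0.84, Col15a1 by -0.75 and Col6a1 by -0.60.

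Matrix proteins other than collagens moved less as a group. Of 32 genes for collagen processing and matrix, 4 DEGs were lower (0.351% of all genes) and 2 higher (0.713%), and the median was -0.21. At an unadjusted p under 0.05, 8 were lower (5.72% of all genes) and 2 higher (4.82%). Without overlap 12 were lower (9.65% of all genes) and none higher. Eln, elastin, was at 3.40, 3.98 and 3.71 FPKM in GAS OC and 6.30, 5.71 and 7.09 FPKM in GAS YC, a log2 fold change of -0.72 (SE 0.10, adjusted p = 0.0588). Loxl2, which crosslinks collagen and elastin, was at 2.05, 2.09 and 2.23 FPKM in GAS OC and 3.20, 3.15 and 4.33 FPKM in GAS YC. Fbn1, fibrillin, and Creb3l1, a transcription factor that turns on collagen genes, were the other lower DEGs (-0.66 and -0.63). Serpinh1, the collagen chaperone, was at 14.1, 17.7 and 16 FPKM in GAS OC and 20.7, 20.5 and 20.9 FPKM in GAS YC, a difference too small for a DEG (-0.45). Adamts2, which trims procollagen, was at 1.40, 1.53 and 1.82 FPKM in GAS OC and 2.14, 2.47 and 2.70 FPKM in GAS YC. Without quantile normalization 1 of this list was a lower DEG, and without GAS YC replicate 3 there were 2. The list held no higher DEG without GAS YC replicate 1, GAS YC replicate 2, GAS OC replicate 4 or GAS OC replicate 5, 1 without GAS OE replicate 3 and 3 without GAS YC replicate 3.

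Some matrix genes were higher. Lum, lumican, which spaces collagen fibrils, was at 12.3, 21.6 and 16.1 FPKM in GAS OC and 5.30, 8.59 and 12.8 FPKM in GAS YC, with 1 young library inside the old range. Htra1, a secreted serine protease, was at 21.9, 21.8 and 28.3 FPKM in GAS OC and 14.1, 16.5 and 15.5 FPKM in GAS YC (log2 fold change 0.49). Timp3, which blocks matrix proteases, was at 41.3, 42.7 and 47.1 FPKM in GAS OC and 28.0, 32.5 and 39.6 FPKM in GAS YC. No gene of the 14 matrix proteases and inhibitors was a DEG. Without overlap 2 of them were higher (7.4% of all genes) and 5 lower (9.65%).

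Markers of the cells that make collagen are given beside these values. The summed level of a list of 11 fibroblast genes was 683 to 756 FPKM in GAS OC and 630 to 899 FPKM in GAS YC, and that of 8 tendon genes 103 to 197 FPKM and 137 to 302 FPKM. Neither list had a DEG, and none of their genes was at 0 in all 6 libraries. Of the fibroblast genes 2 were higher (7.4% of all genes) and 1 lower (9.65%) without overlap, and 1 tendon gene was lower. The lower fibroblast gene was Dpt, dermatopontin, at 25 to 30.8 FPKM in GAS OC and 32.3 to 33.6 FPKM in GAS YC. The part of these cells in the collagen values was not tested. In trained mice the collagens had a median of -0.33 (Col1a1 -1.42, Col5a3 0.10), and in the SOL of the sedentary mice a median of -1.25. No collagen passed the test of a difference between the muscles.

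**Figure D4:**
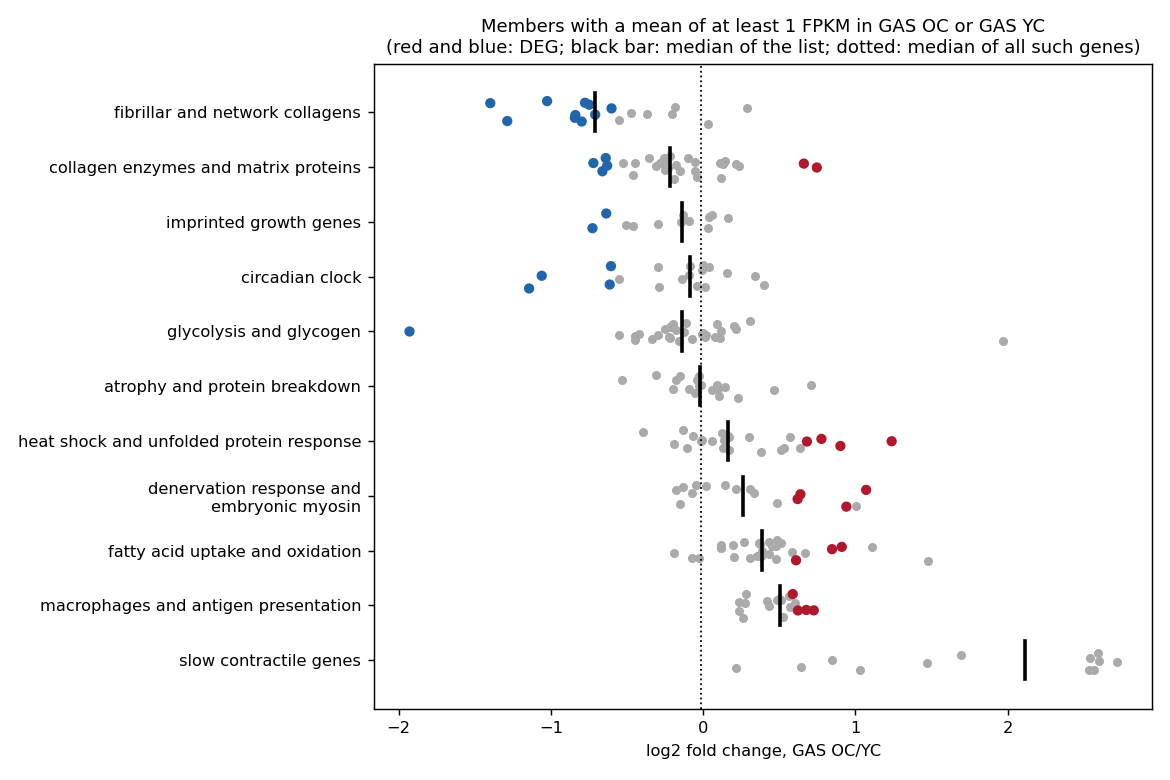
Log2 fold change of GAS OC/YC (horizontal axis) for the members of 11 gene lists with a mean of at least 1 FPKM, 1 point a gene (red and blue: DEGs, higher and lower in GAS OC). Black bars are the list medians, from -0.71 for the collagens to 2.11 for slow contractile genes, which held no DEG, and the dotted line is the median of all such genes, -0.01.

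Genes of denervated or regenerating fibers were higher in part. Of 20 such genes measured, 5 were DEGs, all higher (0.713% of all genes), and 9 were higher at an unadjusted p under 0.05 (4.82%). Without overlap 9 were higher in GAS OC (7.4% of all genes) and 1 lower (9.65%). The summed level of the list overlapped, at 284.3 to 311.5 FPKM in GAS OC and 260.2 to 288.7 FPKM in GAS YC. The median of the 16 members with a mean of 1 FPKM was 0.26, and 0.28 in trained mice. Of these 16, 11 had a fold change above 1 and 5 below. Chrna1, the alpha subunit of the muscle acetylcholine receptor, was at 4.64, 5.74 and 6.79 FPKM in GAS OC and 2.12, 2.58 and 4.37 FPKM in GAS YC. The young and old ranges came close but did not overlap (log2 fold change 0.64, SE 0.17, adjusted p = 0.214). In trained mice it was at 6.14, 5.27 and 5.83 FPKM in GAS OE and 2.58, 3.86 and 3.03 FPKM in GAS YE. Myh3, the embryonic myosin heavy chain, was at 1.49, 2.41 and 2.32 FPKM in GAS OC and 0.171, 0.187 and 1.26 FPKM in GAS YC, where GAS YC replicate 3 again was the high one. Gadd45a, which rises when a nerve is cut, was at 17.2, 40.1 and 27.0 FPKM in GAS OC and 13.4, 10.3 and 12.8 FPKM in GAS YC.

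Ampd3, the AMP deaminase of wasting muscle, was at 4.52, 7.78 and 6.30 FPKM in GAS OC and 3.08, 2.28 and 4.67 FPKM in GAS YC, so that 1 old library lay below the highest young one by a little. Runx1, a transcription factor nearly silent in innervated fibers, was at 0.540, 1.27 and 0.881 FPKM in GAS OC and 0.229, 0.332 and 0.432 FPKM in GAS YC. Lrp4, the agrin receptor of the synapse, and Hdac4, which represses genes after denervation, differed by 0.33 and 0.31 without overlap. The number of DEGs in this list was 2 without GAS YC replicate 1, GAS YC replicate 2 or GAS OC replicate 5, 3 without GAS OC replicate 4, and 6 without GAS YC replicate 3, GAS OC replicate 3 or GAS OE replicate 3.

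Myod1 and Myog encode myogenic factors that bind E-boxes. Myod1 was at 19.5, 18.0 and 17.3 FPKM in GAS OC and 8.71, 5.58 and 8.61 FPKM in GAS YC, a log2 fold change of 1.03 (SE 0.21, adjusted p = 0.121). Myog, which acts after it, was at 2.63, 5.05 and 2.79 FPKM in GAS OC and 1.3, 1.34 and 1.45 FPKM in GAS YC. Pax7, the marker of satellite cells, the stem cells of muscle, was low and lower in GAS OC, at 0.286, 0.342 and 0.388 FPKM against 0.495, 0.474 and 0.583 FPKM in GAS YC (log2 fold change -0.29). Of 15 myogenic regulators measured, Myod1 and Myog were the DEGs (1 of them without GAS OC replicate 4), both higher (0.713% of all genes). Of the 12 with a mean of 1 FPKM, 6 had a fold change above 1 and 6 below. Myf5, of the same family, ranged from 0.390 to 0.752 FPKM in GAS OC and from 0.335 to 0.703 FPKM in GAS YC. The 150 bases before the start of Chrna1 are shown because they carry the E-box CAGCTG, the letters that these factors are known to bind, in capitals at 92 and 44 bases before the start (RefSeq, GRCm38.p6, chr2:73580339-73580488, minus strand, 5′ to 3′).
Chrna1: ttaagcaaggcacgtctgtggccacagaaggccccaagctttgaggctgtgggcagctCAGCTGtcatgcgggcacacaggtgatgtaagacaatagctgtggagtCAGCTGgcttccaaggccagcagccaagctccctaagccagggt
CAGCTG reads the same on both strands. In the 250 bases before the start it was found in 13.0% of 32851 RefSeq promoters and in 4 of the 20 promoters of this list, which cover 14 of its 20 genes (Chrna1, Chrne, Chrng and Musk). A match is a run of letters and not a measured site.

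The circadian clock runs on a loop in which Clock and its partner bind the E-box CACGTG and turn on their own repressors, the Per and Cry genes, along with Nr1d1, Dbp and Ciart. Of 19 clock genes measured, 4 were DEGs, all lower in GAS OC (0.351% of all genes), 6 were lower (9.65%) and 3 higher (7.4%) without overlap. Nr1d1, the repressor REV-ERB alpha, was at 42.0, 26.0 and 28.1 FPKM in GAS OC and 53.6, 58.9 and 79.4 FPKM in GAS YC (log2 fold change -1.06, SE 0.19, adjusted p = 0.0901). Ciart, a repressor of the loop, was at 4.38, 3.50 and 3.45 FPKM in GAS OC and 7.49, 11.8 and 8.48 FPKM in GAS YC (log2 fold change -1.14, SE 0.24, adjusted p = 0.123). Dbp, which relays the rhythm to metabolism, was at 47.9, 39.0 and 46.8 FPKM in GAS OC and 63.5, 56.3 and 75.4 FPKM in GAS YC. Clock itself was at 1.08, 2.66 and 2.87 FPKM in GAS OC and 3.35, 3.64 and 3.15 FPKM in GAS YC, with GAS OC replicate 3 the lowest.

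Not all of the loop went down. Cry2 was at 25.4, 21.3 and 22.2 FPKM in GAS OC and 15.8, 18.4 and 13.4 FPKM in GAS YC (log2 fold change 0.40, unadjusted p = 0.0151), and Per1 overlapped, at 13.3, 10.4 and 14.2 FPKM in GAS OC and 16.3, 27.2 and 12.9 FPKM in GAS YC. The median of 18 clock genes with a mean of 1 FPKM was -0.09. Dbp was lower in trained old mice (-1.07) and Ciart too (-0.83), while Nr1d1 differed by -0.32 there and by -1.54 in the SOL of sedentary mice. The hour at which muscles were taken is not given in the sources used here, and a difference in hour cannot be told apart from age. Without quantile normalization 2 clock genes were DEGs, and without any 1 library 3 or 4. The bases before the start of Ciart carry CACGTG 3 times, more than any other promoter of the list, at 116, 58 and 44 bases before an annotated start (RefSeq, GRCm38.p6, chr3:95882229-95882378, minus strand, 5′ to 3′, motif in capitals).
Ciart: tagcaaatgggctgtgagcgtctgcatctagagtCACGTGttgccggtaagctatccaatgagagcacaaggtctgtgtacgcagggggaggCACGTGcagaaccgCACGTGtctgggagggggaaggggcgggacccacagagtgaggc
CACGTG also reads the same on both strands. It was found in the 250 bases before the start in 6.02% of 32851 promoters and in 6 of the 21 promoters of the clock list, which cover 16 of its 19 genes.

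Genes of macrophages were higher in GAS OC throughout the list. Of 20 measured, 16 had groups without overlap, all higher (7.4% of all genes), 11 were higher at an unadjusted p under 0.05 (4.82%) and 4 were DEGs (0.713%). All 18 members with a mean of 1 FPKM had a fold change above 1, with a median log2 fold change of 0.50, and 0.40 in trained mice. C1qb, a chain of the complement starter C1q that macrophages make, was at 14.8, 15.8 and 16.7 FPKM in GAS OC and 6.65, 7.61 and 11.1 FPKM in GAS YC (log2 fold change 0.73, SE 0.22, adjusted p = 0.258). C1qa and C1qc differed by 0.59 and 0.68. Cd68, a lysosomal protein of macrophages, was at 5.65, 5.24 and 5.97 FPKM in GAS OC and 2.97, 2.80 and 3.51 FPKM in GAS YC, and Laptm5, of the lysosomes of blood cells, at 4.54, 4.73 and 5.62 FPKM and 2.57, 2.98 and 3.14 FPKM in these groups. In muscle tissue, more cells of a type and more RNA per cell cannot be told apart.

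The summed level of the 20 macrophage genes was 256 to 282 FPKM in GAS OC and 139 to 208 FPKM in GAS YC. Outside this list, genes of the Cd209 lectin family were DEGs. Cd209f was at 5.42, 4.40 and 4.06 FPKM in GAS OC and 1.09, 1.09 and 1.74 FPKM in GAS YC (log2 fold change 1.18), and Cd209g and Cd209b, close copies that may share reads, differed by 0.88 and 0.75. Trem2, a lipid receptor of macrophages, was picked after its values were seen. It was at 0.663, 0.955 and 1.05 FPKM in GAS OC and 0.278, 0.257 and 0.283 FPKM in GAS YC (log2 fold change 0.52, adjusted p = 0.069). The number of macrophage DEGs was 1 without GAS YC replicate 1, 2 without GAS YC replicate 2 or GAS OC replicate 5, 6 without GAS YC replicate 3, and 9 without quantile normalization.

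Lists of other immune cells had low sums. The 11 T and NK cell genes summed to 0.155 to 0.876 FPKM in GAS OC and 0.0748 to 0.302 FPKM in GAS YC, with 2 of them at 0 in all 6 libraries and Cd3e at 0 in every GAS OC library. The 6 B and plasma cell genes summed to 0.987 to 1.67 FPKM in GAS OC and 0.352 to 1.33 FPKM in GAS YC. The 8 neutrophil genes summed to 0.946 to 18.0 FPKM in GAS OC, highest in replicate 4, and 0.0616 to 1.57 FPKM in GAS YC. Of these 8, none was a DEG, 2 were higher at an unadjusted p under 0.05 (4.82% of all genes) and 2 without overlap (7.4%). There were 3 DEGs without GAS OC replicate 3 and 1 without GAS OC replicate 5. The median of the 2 with a mean of 1 FPKM was 1.33, and -0.39 in trained mice. Of 26 interferon-induced genes none was a DEG (median 0.01), and of 15 complement genes none was (median 0.20).

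Glycolysis held 1 lower DEG (0.351% of all genes) among 30 genes, Pfkfb3. Without GAS YC replicate 3 it held 4 lower and 1 higher, and without GAS OC replicate 5 it held 2 lower. The list lay slightly lower, with 10 of 30 genes lower without overlap (9.65% of all genes) and a median of -0.14. The summed level was 32100 to 33730 FPKM in GAS OC and 33940 to 39840 FPKM in GAS YC. Ldha, the lactate dehydrogenase of fast fibers, was at 1552, 1575 and 1559 FPKM in GAS OC and 2042, 2052 and 1855 FPKM in GAS YC (log2 fold change -0.21). Pgk1, phosphoglycerate kinase, was at 399, 422 and 402 FPKM in GAS OC and 500, 489 and 467 FPKM in GAS YC (-0.45), and Gpd1, which shuttles reducing power to mitochondria, differed by -0.55.

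Fatty acid oxidation turned on single libraries. Of 31 genes, 28 had a fold change above 1, with a median log2 fold change of 0.38. The list held 3 DEGs, all higher (0.713% of all genes): Acadl and Hadhb, enzymes of the beta-oxidation spiral, and Ppara, the receptor that turns on such genes. None of the 31 genes was higher without overlap (7.4% of all genes). Acadl was at 147, 183 and 165 FPKM in GAS OC and 62.5, 54.7 and 163 FPKM in GAS YC, with GAS YC replicate 3 within the old range. Hadhb was at 205, 246 and 227 FPKM in GAS OC and 110, 106 and 208 FPKM in GAS YC, and Ppara at 3.05, 4.80 and 4.32 FPKM and 1.15, 0.756 and 3.69 FPKM in these groups. Without GAS YC replicate 3 there were 18 DEGs in the list, and without GAS YC replicate 1, GAS YC replicate 2, GAS OC replicate 4 or GAS OC replicate 5 there was none. In trained mice the median was 0.03.

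The genes of slow and intermediate fibers followed the same libraries. Mb, myoglobin, was at 2220, 3625 and 2572 FPKM in GAS OC and 586, 330 and 3002 FPKM in GAS YC. Fabp3, the fatty acid carrier of oxidative fibers, was at 881, 1256 and 1030 FPKM in GAS OC and 239, 189 and 1292 FPKM in GAS YC. Myh2, the myosin of fast oxidative fibers and a DEG (log2 fold change 1.39), was at 571, 997 and 768 FPKM in GAS OC and 199, 134 and 914 FPKM in GAS YC. The 12 slow contractile genes had a median of 2.11 and no DEG, and the groups overlapped for each of them. Without GAS YC replicate 3 the list had 10 DEGs and a median of 3.46, without GAS YC replicate 2 no DEG and a median of 1.07, and with the filter on low FPKM 2 DEGs. Myh2 was a DEG without GAS YC replicate 3 and in no other fit that left out 1 library. In trained mice Myh7, the slow myosin, ranged from 6.22 to 168 FPKM in GAS OE and from 6.75 to 74.0 FPKM in GAS YE. The share of the deep, slow part of the muscle in each sample is not given in the sources used here, and its part in these values was not tested.

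**Figure D5:**
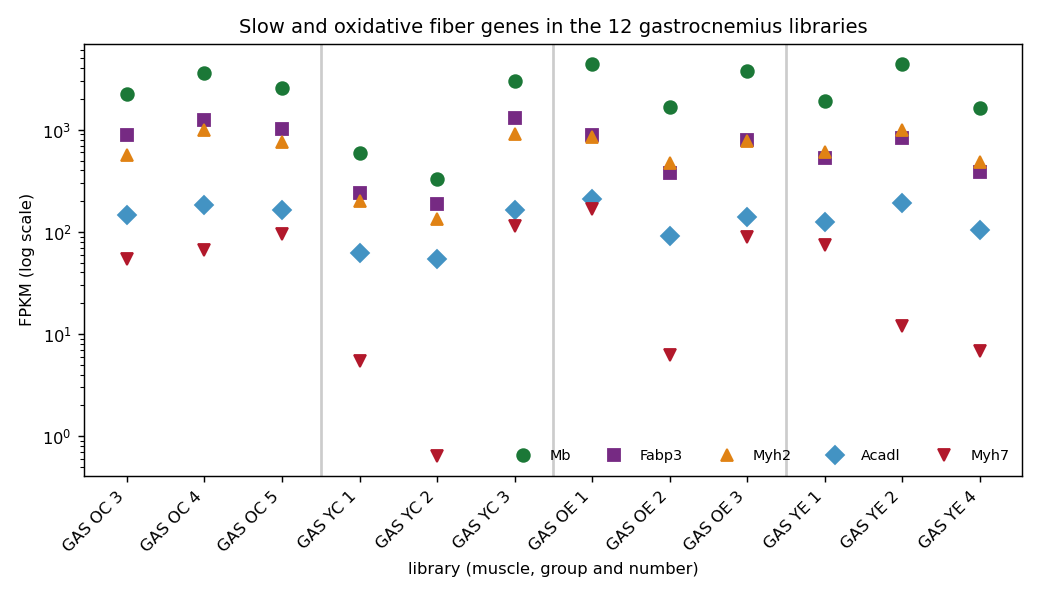
FPKM (vertical axis, log scale) of Mb, Fabp3, Myh2, Acadl and Myh7 in the 12 GAS libraries (horizontal axis). GAS YC replicates 1 and 2 lie below the 3 GAS OC libraries for all 5 genes, while GAS YC replicate 3 lies within or above their range.

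Among 28 genes of the sarcoplasmic reticulum and calcium handling, Dhrs7c fell and no other passed the adjusted test. Dhrs7c was the DEG of the list, lower in GAS OC (0.351% of all genes). The list held 3 higher and 3 lower without GAS YC replicate 3, and 2 higher and 1 lower without GAS OC replicate 4. It held 1 higher and 2 lower without GAS OC replicate 3, and 1 of each without GAS YC replicate 2 or GAS OE replicate 3. Camk2b and Camk2a encode calcium-dependent kinases. Camk2b was at 85.1, 74.6 and 77.7 FPKM in GAS OC and 49.4, 52.3 and 47.2 FPKM in GAS YC (log2 fold change 0.56, SE 0.08, adjusted p = 0.0588), and Camk2a lay the other way, at 111, 102 and 115 FPKM in GAS OC and 147, 138 and 119 FPKM in GAS YC. Micu2 encodes a regulator of calcium entry into mitochondria. It was at 20.9, 21.9 and 20.8 FPKM in GAS OC and 12.6, 14 and 15.1 FPKM in GAS YC (log2 fold change 0.45, SE 0.08, adjusted p = 0.0832). Mrln, myoregulin, which slows the calcium pump, was at 77.3, 54.7 and 69.0 FPKM in GAS OC and 83.4, 110 and 79.9 FPKM in GAS YC. The list's median was -0.04.

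Of the imprinted growth genes, 7 of 20 were lower at an unadjusted p under 0.05 (5.72% of all genes), and 7 were lower (9.65%) and none higher without overlap. Many of these genes are known to be shut down after birth. The noncoding RNAs Meg3 and Rian come from 1 cluster on chromosome 12. Meg3 was at 3.10, 3.37 and 3.74 FPKM in GAS OC and 5.95, 4.53 and 6.00 FPKM in GAS YC, and Rian at 1.13, 1.17 and 1.27 FPKM in GAS OC and 2.39, 1.65 and 2.93 FPKM in GAS YC (log2 fold changes -0.64 and -0.73). They were the DEGs of the list, both lower (0.351% of all genes). The list had 1 DEG without GAS YC replicate 1, 3 without GAS OC replicate 5 and none without quantile normalization. Mest, expressed from the paternal copy, was at 0.388, 0.590 and 0.695 FPKM in GAS OC and 1.06, 0.811 and 0.945 FPKM in GAS YC, and Grb10, an inhibitor of insulin signals, differed by -0.50. In trained mice Meg3 and Rian differed by -0.79 and -0.66, and Mest by 0.17.

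Of 25 genes for heat shock and the unfolded protein response, 4 were DEGs, all higher (0.713% of all genes). There were 1 without GAS YC replicate 2 or GAS OC replicate 3, 2 without GAS OC replicate 4 and 7 without GAS YC replicate 3. Hspb7, a small heat shock protein of muscle, was at 387, 276 and 221 FPKM in GAS OC and 122, 62.8 and 185 FPKM in GAS YC, and Cryab, alpha B crystallin, at 1057, 1039 and 753 FPKM in GAS OC and 538, 286 and 711 FPKM in GAS YC. Their old and young ranges nearly met, with GAS YC replicate 3 the highest young library. Sdf2l1, of the endoplasmic reticulum, was at 4.58, 3.86 and 3.73 FPKM in GAS OC and 2.13, 1.32 and 2.36 FPKM in GAS YC, and the chaperone Hspa5 of the same compartment differed by 0.38. Hspa8, the constant cytosolic chaperone, was lower, at 525, 551 and 485 FPKM in GAS OC and 574, 609 and 600 FPKM in GAS YC (log2 fold change -0.40).

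Among 25 antioxidant genes, 2 were DEGs, both higher (0.713% of all genes). At an unadjusted p under 0.05, 6 were higher (4.82% of all genes) and 4 lower (5.72%). Without overlap 6 were higher (7.4% of all genes) and 5 lower (9.65%). There was no DEG without GAS YC replicate 2, 1 without GAS YC replicate 1 or GAS OC replicate 4, and 3 without GAS YC replicate 3 or GAS OC replicate 3. Gpx3, the secreted glutathione peroxidase, was at 157, 160 and 169 FPKM in GAS OC and 87.6, 77.6 and 125 FPKM in GAS YC, and Gsta4, which detoxifies lipid aldehydes, at 13.1, 19 and 15.8 FPKM in GAS OC and 7.28, 7.38 and 13.0 FPKM in GAS YC. Iron genes held 1 lower DEG in 20 (0.351% of all genes), and none when any 1 of the 6 libraries was left out or without quantile normalization. Tfrc, the transferrin receptor, was at 21.9, 20.3 and 23.8 FPKM in GAS OC and 36.0, 37.7 and 42.3 FPKM in GAS YC, without overlap. Its log2 fold change of -0.85 had an SE of 0.36, as the spread was taken over all 4 GAS groups and Tfrc ranged from 9.13 to 40.6 FPKM in GAS OE. Slc40a1, the iron exporter, was also lower (-0.41).

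Secreted factors of muscle held 3 DEGs in 25, all higher (0.713% of all genes), among them Dkk3 (2 to 4 without any 1 of the 6 libraries). Ostn, musclin, was at 37.6, 51.9 and 64.8 FPKM in GAS OC and 23.2, 15.1 and 10.4 FPKM in GAS YC (log2 fold change 1.49, SE 0.38, adjusted p = 0.194), and was higher in trained old mice as well (1.34). Il15, a cytokine made by fibers, was at 3.51, 6.87 and 4.62 FPKM in GAS OC and 1.43, 1.44 and 3.67 FPKM in GAS YC, with 1 old library below the highest young one, and differed by -0.04 in trained mice. Of 27 Wnt genes, the secreted inhibitor Wif1 was lower, at 0.111, 0.728 and 1.00 FPKM in GAS OC and 1.58, 1.07 and 2.65 FPKM in GAS YC, opposite to Dkk3. Wif1 was no DEG without GAS YC replicate 3 or GAS OC replicate 3. None of 27 TGF-beta and BMP genes was a DEG and none of 28 insulin and IGF genes, with 1 and 2 higher ones without GAS YC replicate 3. The insulin and IGF list held 1 higher DEG without GAS OC replicate 3 and 1 lower without GAS OC replicate 5.

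Of 20 genes of the mitochondrial pathway none was lower or higher at an unadjusted p under 0.05. Of 24 genes of death receptors and caspases, Tnfrsf23 was the DEG (0.713% of all genes), and without GAS YC replicate 1 there were 2. At an unadjusted p under 0.05, 4 were higher (4.82% of all genes) and 1 lower (5.72%). Without overlap 6 were higher (7.4%) and 4 lower (9.65%). Casp8, which starts death from receptors, was at 0.926, 0.987 and 0.794 FPKM in GAS OC and 1.41, 0.942 and 1.43 FPKM in GAS YC (log2 fold change -0.37). Casp4, of inflammation, was at 1.28, 1.41 and 1.43 FPKM in GAS OC and 0.747, 0.434 and 0.648 FPKM in GAS YC (0.50). The 20 genes of atrophy and protein breakdown had no DEG and a median of -0.02. Nor was there a DEG among 81 subunits of oxidative phosphorylation (median 0.05), 83 cytosolic ribosomal proteins (-0.02), 15 adipocyte genes (-0.80, with groups that overlapped for 11 of them), or 12 Schwann cell genes (-0.09). In the endothelium list Aplnr, the apelin receptor, was the DEG, lower in GAS OC (0.351% of all genes). It was at 1.03, 0.974 and 1.3 FPKM in GAS OC and 2.19, 1.93 and 2.96 FPKM in GAS YC.

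Other genes were chosen because the study names them for this muscle, so their values are a description. Amy1, an amylase with close copies, was at 53.4, 68.7 and 52.5 FPKM in GAS OC and 17.4, 12.9 and 25.6 FPKM in GAS YC. Myh14, a nonmuscle myosin, was at 15.1, 14.3 and 13.5 FPKM in GAS OC and 7.20, 7.21 and 9.68 FPKM in GAS YC (log2 fold change 0.64, SE 0.10, adjusted p = 0.069). Rhpn2 and Cds1, an enzyme of phospholipid synthesis, differed by 0.84 and 0.78, and Htatip2 by 0.57. Among those lower were Itm2a, at 23.8, 34.3 and 37.7 FPKM in GAS OC and 57.4, 54.0 and 47.8 FPKM in GAS YC, and S100a4, a calcium-binding protein, at 13.8, 19 and 21.1 FPKM in GAS OC and 29.7, 26.2 and 29.7 FPKM in GAS YC.

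Some genes passed the adjusted test once GAS OE replicate 3 was left out of the spread. Ano5, a membrane scramblase whose loss causes a muscular dystrophy, was at 18.3, 19.1 and 21.1 FPKM in GAS OC and 26.5, 27.1 and 27.2 FPKM in GAS YC (log2 fold change -0.53). Its adjusted p was 0.257, and 0.0116 without that library, with a range of 0.0116 to 0.522 over the alternatives. Adcy9, an adenylyl cyclase, was at 9.37, 9.52 and 9.73 FPKM in GAS OC and 11.2, 11.9 and 12.8 FPKM in GAS YC (adjusted p = 0.624, and 0.00867 without that library, range 0.00867 to 0.827). Ube2o, a ubiquitin-conjugating enzyme, was at 10.5, 10.6 and 10.4 FPKM in GAS OC and 7.32, 7.12 and 7.64 FPKM in GAS YC (adjusted p = 0.0832, and 0.0214 without that library, range 0.0148 to 0.22). Micu2, Mlf1, Eln and Camk2b passed in the same way (adjusted p = 0.00867, 0.0214, 0.0478 and 0.0478, with the highest over the alternatives 0.266, 0.237, 0.209 and 0.261).

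The age effect was also set against that in the SOL of the same groups, to see where the muscles differed. Libraries of the muscles that share a group and a number were taken as 1 mouse. The difference of the age effects, GAS minus SOL, passed an adjusted p of 0.05 for 45 genes, 0.239% of those tested, 14 higher in GAS and 31 lower, and 37 of the 45 were below a mean of 1 FPKM in GAS. With the mouse as a block 18 genes passed, 15 of them among the 45. Of the 8 genes that changed in GAS, 5 passed: Cpne2 (1.73, SE 0.23, adjusted p = 0.00174), Kcnab1 (1.57, SE 0.21, adjusted p = 0.00174), Dkk3 (1.48, SE 0.22, adjusted p = 0.00536), Cpn1 (0.77, SE 0.07, adjusted p = 2.46e-05) and Ppp1r36. With the block their adjusted p were 0.00666, 0.0291, 0.00372, 0.00372 and 0.0291. Cpne2 was at 3.14, 2.35 and 2.92 FPKM in SOL OC and 4.16, 4.03 and 2.89 FPKM in SOL YC, and Kcnab1 at 0.348, 0.496 and 0.289 FPKM in SOL OC and 0.328, 0.788 and 0.444 FPKM in SOL YC. In SOL these genes overlapped between the ages, and in GAS they lay apart.

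Krt18 differed between the muscles too (1.49, adjusted p = 0.0191, and 0.0136 with the block), at 0.0576, 0.493 and 0.246 FPKM in SOL OC and 0, 0.116 and 0 FPKM in SOL YC. Tnfrsf23 and Dhrs7c did not pass this test (0.24 and -0.41, adjusted p = 0.703 and 0.325), with SOL fold changes in the same direction as in GAS (0.51 and -0.37). A potassium channel gene was higher in old mice in both muscles, and by more in SOL. Kcnj3, an inward rectifier, was at 0.309, 0.284 and 0.620 FPKM in GAS OC and 0.112, 0.0640 and 0.0822 FPKM in GAS YC, against 1.58, 1.22 and 1.28 FPKM in SOL OC and 0.0332, 0.0369 and 0.0831 FPKM in SOL YC, a difference of the age effects of -0.75 (adjusted p = 0.00433, and 0.0445 with the block). Macrophage genes had a median of -0.38 in SOL against 0.50 in GAS. None of the 20 passed the test of the difference, and with the block Cd74, which carries antigen-presenting molecules, did (1.75, adjusted p = 0.177, and 0.0291 with the block). Without GAS YC replicate 3, 136 genes passed the test of the difference, and without another of the 6 libraries 25 to 27.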

How the data were processed

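RNA of GAS and SOL was sequenced after poly-A selection. Per the labels' processing notes the authors aligned reads with HISAT2 2.1.0 to mm10 and used StringTie 1.3.4d; other aligners are named without a role. The deposited table gives FPKM per gene and library and log2 values, for which the authors added 1 to the FPKM, took log2 and quantile normalized all 24 libraries. Repeating this gave values within 5e-09. Deposited comparisons of SOL with GAS (signed fold, p-values, adjusted p-values, a statistic as a score, group means on the log2 scale) were the authors' own and were not used. Of the gene IDs, 18758 were found in RefSeq GRCm38.p6, which gave positions, and 25 symbols damaged by a spreadsheet were restored.

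OC was compared with YC with limma 3.58.1 in R 4.3.3 (trend, two-sided, no block) on the deposited log2 values of the 12 GAS libraries, with Benjamini-Hochberg adjustment over 18795 genes. Fold changes are therefore on the log2(FPKM + 1) scale after quantile normalization and understate changes of low genes. Levels are FPKM before quantile normalization, so for abundant genes too the fold change can be larger or smaller than the levels show. The age effects of the muscles were compared in a fit of 24 libraries, where the mouse as a block pairs the SOL and GAS libraries that share a group and number. Correlations between same-numbered libraries of the muscles ran from -0.034 to 0.358. No read depth is known, so precision rests on 3 libraries a group. The study states a t-test per gene; limma was used to share the spread across genes. The fits were tested on simulated data.

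The members and gene lists were chosen with earlier results of these data known. Genes were named if they passed the adjusted test, with or without GAS OE replicate 3 (12 by p for the second), if they were the 10 highest or 10 lowest DEGs without overlap at a mean of 1 FPKM, if they had the lowest p in a list (up to 6) or defined it, or if the study names them for aging in GAS. Trem2, Tmem132b and Pifo were picked after their values were seen. Alternatives were each gene's own variance, only the 6 libraries, a pseudocount of 0.1, a filter of 1 FPKM in 3 libraries, no quantile normalization, each replicate left out, and the block. Some list members are not reported here.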

Additional observations from a re-analysis of the deposited data

Results flagged for a closer look

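The age effect differed between GAS and SOL (GAS minus SOL, log2 scale, adjusted p under 0.05 from limma in the fit of 24 libraries) for these genes of the report: Cpne2 (1.73), Kcnab1 (1.57), Krt18 (1.49), Dkk3 (1.48), Cpn1 (0.766) and Ppp1r36 (0.0816) on the positive side and Kcnj3 (-0.753) on the negative side. Trem2 also differed (0.771, adjusted p = 0.0209), at 0.262, 0.426 and 0.416 FPKM in SOL OC and 0.845, 0.741 and 0.612 FPKM in SOL YC, below 1 FPKM in both ages. With the mouse as a block its adjusted p was 0.15.

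Genes below or near 1 FPKM passed the same test. Tmem132b (0.888) was at 2.00, 1.25 and 1.55 FPKM in GAS OC, against 0.321, 0.523 and 0.266 FPKM in GAS YC, and at most 0.0516 FPKM in the 6 SOL libraries. Pifo (0.916) was at 1.43, 1.14 and 0.775 FPKM in GAS OC, against 0.111, 0 and 0.250 FPKM in GAS YC, and above 0 in 1 of the 6 SOL libraries. The noncoding AI847159 (0.275) was at 0.140, 0.215 and 0.118 FPKM in GAS OC and listed at 0 in all GAS YC libraries. Apoh (-0.562), a plasma apolipoprotein, was at 0.0611, 0.0340 and 0 FPKM in GAS OC and 0.281, 0.298 and 0.242 FPKM in GAS YC, and at 0.362, 0.285 and 0.353 FPKM in SOL OC and 0.218, 0.176 and 0.260 FPKM in SOL YC. With the block the adjusted p of these 4 genes were 0.0809, 0.082, 0.0508 and 0.137.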

How the results depend on the processing

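With 3 libraries a group and no read depth, small changes and changes of low genes could be missed. Genes past adjusted p in GAS OC/YC were 8, and 1 with each gene's own variance, 4 with only the 6 libraries, 18 where 0.1 was added in place of 1, 18 after filtering out low FPKM, which removes 3 of the 8, 26 without quantile normalization, and 9 to 55 without single libraries. DEGs were 200, 642 with 0.1 added and 148 to 405 without single libraries. Genes whose age effect differed between GAS and SOL were 45, 16 with their own variance, 22 with 0.1 added, 14 with the filter, 25 to 136 without single libraries, and 18 with the mouse as a replicate block. Within GAS no paired analysis was possible because GAS OC and GAS YC are different mice. The expressed DEGs that passed an unadjusted p of 0.05 in trained mice in the same direction were 84, and 76 without GAS OE replicate 3, an alternative chosen after seeing the data. No fold change of the 139 named genes turned its sign. Many of these genes were chosen for a low p or for groups without overlap, and some alternatives change only the spread. A turn was therefore unlikely from the start. Of 1656 values under the alternatives, 1588 stayed on the same side of the adjusted threshold, 26 lost a call and 42 gained it. The cause of these shifts was not tested.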
